A study of Rattus norvegicus with 24 samples.

Results

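The 10 genes studied here restrain inflammatory signaling and were measured in the lungs of hexanal-exposed rats. They are Zfp36, Zfp36l1, Zfp36l2, Dusp1, Dusp2, Dusp5, Dusp6, Nfkbia, Tnfaip3 and Socs3. They were chosen by gene symbol, with earlier results of these data known. Of the 10 genes, 9 were matched to a probe on the array, among 21263 genes or unnamed probes tested. Each of the 9 had 1 probe, which was well above background on all 24 arrays, and Tnfaip3 was not matched to a probe. Lung RNA came from 24 Fischer-344 rats of both sexes, obtained at 7 to 8 weeks of age. The control group breathed filtered clean air, and the low-dose, middle-dose and high-dose groups inhaled hexanal, a volatile aldehyde, at 600, 1000 and 1500 ppm for 4 h a day on 5 days a week. Each group had 6 rats, 3 males and 3 females, and no group carried a genetic change. The sample names give ppm, while the treatment protocol in the labels gives these numbers as mg per cubic meter and 5 weeks of exposure, and the study's methods give ppm and a shorter exposure. RNA of the whole lung was measured, so fewer cells of a type and less RNA per cell cannot be told apart.

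Most of these genes are transcribed quickly when a cell senses a stress or a cytokine, and their products then switch the response off. The Zfp36 family (Zfp36 is also called tristetraprolin) binds AU-rich elements in the mRNAs of cytokines such as Tnf and speeds their decay. Dusp1, Dusp2, Dusp5 and Dusp6 are phosphatases that inactivate MAP kinases. Nfkbia encodes the inhibitor that holds NF-kB in the cytoplasm, Tnfaip3 (A20) edits ubiquitin chains upstream of NF-kB, and Socs3 blocks JAK kinases at gp130 family receptors.

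Array signals at the 75th percentile ran from 1700.94 to 3129.92 over the 24 arrays, and no probe was saturated. Every level below is a log2 signal minus that of the array's 75th percentile, so a level is compared only between rats for the same gene. The summed level of 14 lung marker genes, which include the surfactant genes Sftpc and Sftpb, was between 9.36 and 9.76 in all rats. The arrays lay on 6 slides of 4 arrays, each slide held rats of 1 sex, and no slide held both control and 1500 ppm rats. Calls follow the threshold of the study's methods, a change of 1.5-fold or more together with p under 0.05, here the unadjusted p-value of limma. The Benjamini-Hochberg adjusted p-value over all genes tested is given beside it.

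Rapid induction of these genes runs through short promoter elements, so the 250 bases before the RefSeq start (assembly GRCr8) were searched on both strands for 5 motifs. These were the CRE (TGACGTCA), the AP-1 site (TGANTCA), the CArG box, the NF-kB site and the GAS element (TTCNNNGAA). Of the 10 listed genes, the CRE was found in Dusp1, the AP-1 site in Zfp36l1 and Tnfaip3, the CArG box in Zfp36 and Dusp5, the NF-kB site in Nfkbia, Socs3 and Tnfaip3, and the GAS element in 0 genes. Among 33469 rat promoters of the same length these motifs were found in 1.59%, 6.34%, 1.5%, 3.54% and 7.67%, in that order. No matched motif overlapped another in the listed genes, and a match describes the letters and does not show binding. The promoters of the 3 genes called at 1500 ppm are shown with that of Dusp5, which was not called at any dose and holds 2 CArG boxes side by side. Each line runs 5′ to 3′ on the strand of the gene, and capitals mark the matched motif (the CRE in Dusp1, the CArG box in Zfp36 and Dusp5, the NF-kB site in Nfkbia).
Dusp1, chr10:17184603-17184852, plus strand: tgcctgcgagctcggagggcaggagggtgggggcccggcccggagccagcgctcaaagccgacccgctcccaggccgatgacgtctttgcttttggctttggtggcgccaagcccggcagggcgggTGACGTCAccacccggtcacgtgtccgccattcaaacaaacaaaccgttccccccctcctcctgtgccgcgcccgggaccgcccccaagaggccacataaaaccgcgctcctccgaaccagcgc
Zfp36, chr1:92799109-92799358, minus strand: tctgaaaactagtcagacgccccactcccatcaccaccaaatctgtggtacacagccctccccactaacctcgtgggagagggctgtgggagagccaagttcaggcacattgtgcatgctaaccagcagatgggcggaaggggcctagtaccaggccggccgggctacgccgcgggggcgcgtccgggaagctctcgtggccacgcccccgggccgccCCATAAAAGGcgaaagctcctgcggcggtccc
Nfkbia, chr6:78597073-78597322, minus strand: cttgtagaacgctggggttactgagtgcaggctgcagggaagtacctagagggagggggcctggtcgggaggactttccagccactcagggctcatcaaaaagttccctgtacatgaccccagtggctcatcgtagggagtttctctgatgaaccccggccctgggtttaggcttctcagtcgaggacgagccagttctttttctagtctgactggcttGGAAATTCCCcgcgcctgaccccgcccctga
Dusp5, chr1:262543524-262543773, plus strand: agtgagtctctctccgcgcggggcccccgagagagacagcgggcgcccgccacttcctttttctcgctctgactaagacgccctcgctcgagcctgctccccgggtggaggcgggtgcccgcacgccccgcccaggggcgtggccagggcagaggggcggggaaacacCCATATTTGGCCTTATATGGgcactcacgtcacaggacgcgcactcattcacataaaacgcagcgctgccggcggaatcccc
The CRE of Dusp1 lay 124 to 117 bases before the start. The CArG box of Zfp36 lay 32 to 23 bases before it, and the pair in Dusp5 lay 82 to 73 and 72 to 63 bases before it. The NF-kB site of Nfkbia, read on the opposite strand, lay 31 to 22 bases before the start.

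Dusp1 and Zfp36 were lower in the high-dose group, and Nfkbia was lower in the middle-dose and high-dose groups at the same threshold. The adjusted p-value was under 0.05 for 0 members at any dose, and for 0%, 0.0188% and 0.0047% of all genes at 600, 1000 and 1500 ppm. At 600 ppm, 0 of the 9 members were called in either direction, where 0.437% of all genes tested were called lower and 0.169% higher. At 1000 ppm, 1 member (Nfkbia) was called lower and 0 higher, where 0.339% of all genes were called lower and 1.29% higher. At 1500 ppm, 3 members were called lower and 0 higher, where 0.531% of all genes were called lower and 0.701% higher. Whatever their fold change, 1, 3 and 4 of the 9 members passed the unadjusted limma test in the order of dose, against 4.35%, 8.97% and 6.95% of all genes. The median log2 difference of the 9 members was -0.20, -0.24 and -0.38 at 600, 1000 and 1500 ppm, while over all genes it was -0.00029, 0.0055 and 0.012. The 3 comparisons share the 6 control rats. Because the members were chosen with earlier results of these data known, their counts beside the shares of all genes are a description.

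**Figure D1:**
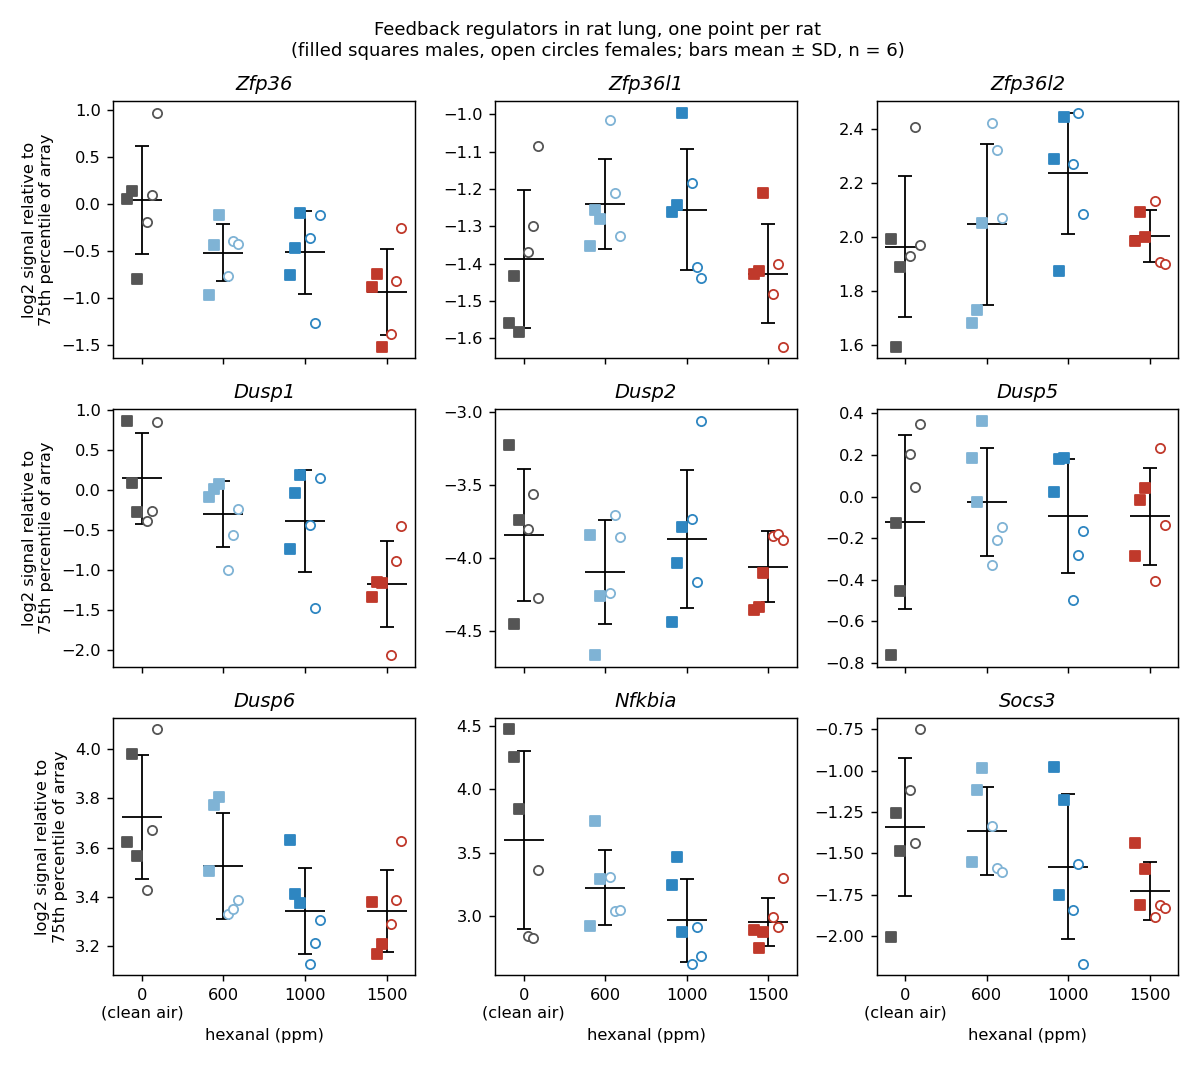
Level of each of the 9 measured genes (log2 signal relative to the 75th percentile of the array, vertical axis) against hexanal dose in ppm, with 1 point per rat, filled squares for males, open circles for females and bars for the mean ± SD of 6 rats. All 6 rats at 1500 ppm sit below all 6 control rats for Dusp1, while the control males stand above the other rats for Nfkbia.

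Among the RNA-binding proteins, Zfp36 (NM_133290) ranged from -0.80 to 0.97 in control rats (median 0.07). At 600 ppm it ranged from -0.97 to -0.12 (median -0.43), at 1000 ppm from -1.26 to -0.10 (median -0.42) and at 1500 ppm from -1.52 to -0.25 (median -0.86). The other 4 control rats lay between -0.19 and 0.13, while control rat 23 stood above them and control rat 3 below, and 4 of the 6 rats at 1500 ppm lay below every control rat. The mean fell from 0.04 ± 0.57 to -0.94 ± 0.46 (SD, n = 6), a log2 difference of -0.98 (standard error 0.25, 1.97-fold lower, 95% interval -1.50 to -0.46). The limma adjusted p-value was 0.291, and the exact permutation p of 6 rats against 6, two-sided, was 0.00649. At 600 and 1000 ppm the log2 differences were -0.56 and -0.56, under the 1.5-fold threshold, with limma adjusted p-values of 0.996 and 0.533. With the slide as a block, Zfp36 was called lower at all 3 doses, with log2 differences of -0.91, -1.29 and -2.11 and limma adjusted p-values of 0.911, 0.999 and 0.983. Control rats shared slides only with 600 ppm rats, so the blocked values at 1000 and 1500 ppm are indirect. They add up the gaps between neighbouring doses, some of which rest on a single rat. Without control rat 23, the difference at 1500 ppm was -0.79.

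Zfp36l1 and Zfp36l2, the other members of this family, were not called at any dose. Zfp36l1 (NM_017172) ranged from -1.58 to -1.09 in control rats (median -1.40) and from -1.62 to -1.21 at 1500 ppm (median -1.42), and the groups overlapped almost entirely. Its log2 differences were 0.15, 0.13 and -0.04 at the 3 doses, and the 95% interval at 1500 ppm was -0.23 to 0.15. Zfp36l2 (NM_001036626) ranged from 1.59 to 2.41 in control rats (median 1.95), from 1.87 to 2.46 at 1000 ppm (median 2.28) and from 1.90 to 2.14 at 1500 ppm (median 1.99). It had log2 differences of 0.08, 0.27 and 0.04, and the value at 1000 ppm had a limma adjusted p-value of 0.558. The 95% interval of Zfp36l2 at 1500 ppm was -0.23 to 0.31.

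Of the MAP kinase phosphatases, Dusp1 (NM_053769), which acts in the nucleus mainly on p38 and JNK, had the largest difference among the 9 members at 1500 ppm. Control rats ranged from -0.39 to 0.86 (median -0.08). The range was -0.99 to 0.08 at 600 ppm (median -0.16), -1.47 to 0.19 at 1000 ppm (median -0.23) and -2.06 to -0.45 at 1500 ppm (median -1.15). The high-dose group did not overlap the control group, a separation in this direction that 0.169% of all genes showed, and the closest pair was control rat 21 at -0.39 and high-dose rat 38 at -0.45. The lower doses overlapped the control group, with 2 of 6 rats at 600 ppm and 3 of 6 at 1000 ppm below every control rat. The mean fell from 0.15 ± 0.57 to -1.17 ± 0.53 (SD, n = 6), a log2 difference of -1.32 (standard error 0.30, 2.49-fold lower, 95% interval -1.94 to -0.69). The limma adjusted p-value was 0.188, and the exact permutation p was 0.00216, the smallest that 6 rats against 6 can give. By unadjusted p-value Dusp1 was at rank 25 and Zfp36 at rank 56 of the 21263 genes at 1500 ppm. With the slide as a block, Dusp1 was called lower at 1000 and 1500 ppm, at -1.18 and -2.52, with limma adjusted p-values of 0.999 and 0.983. As for Zfp36, these blocked values are indirect, since control rats shared slides only with 600 ppm rats.

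Dusp6 (NM_053883), which dephosphorylates ERK in the cytoplasm, had a smaller but closely measured difference. Levels ran from 3.43 to 4.08 in control rats (median 3.65), from 3.33 to 3.81 at 600 ppm (median 3.45), from 3.13 to 3.63 at 1000 ppm (median 3.34) and from 3.17 to 3.63 at 1500 ppm (median 3.33). At both higher doses, 5 of the 6 rats lay below every control rat and the remaining rat lay within the control range. The log2 differences were -0.20, -0.38 and -0.38 (standard error 0.12), and the 95% interval was -0.62 to -0.14 at both higher doses. These were under the 1.5-fold threshold, with limma adjusted p-values of 0.516 and 0.459 for the middle and high dose and an exact permutation p of 0.013 for each. The probes of Dusp5 and Dusp6 were printed 10 times on each array, and the median SD between those spots was 0.07 and 0.06 on the log2 scale.

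The remaining phosphatases were not called. Dusp2 (NM_001012089), a nuclear phosphatase of immune cells, ranged from -4.45 to -3.22 in control rats (median -3.77) and from -4.36 to -3.84 at 1500 ppm (median -3.99). It overlapped the control group at every dose, with log2 differences of -0.26, -0.03 and -0.22 and a 95% interval at 1500 ppm of -0.67 to 0.23. Dusp5 (NM_133578), a nuclear phosphatase of ERK, ranged from -0.76 to 0.35 in control rats (median -0.04) and from -0.41 to 0.23 at 1500 ppm (median -0.08). Its log2 differences were 0.10, 0.03 and 0.03 with both sexes together, and its values within each sex are given below.

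Nfkbia (NM_001105720), the NF-kB inhibitor, ranged from 2.83 to 4.47 in control rats (median 3.61) and from 2.92 to 3.75 at 600 ppm (median 3.17). At 1000 ppm the range was 2.63 to 3.47 (median 2.90) and at 1500 ppm 2.75 to 3.30 (median 2.90). The spread was widest in the control group, where the SD was 0.70, against 0.19 at 1500 ppm, and the values within each sex are given below. Only 2 of 6 rats at 1000 ppm and 1 of 6 at 1500 ppm lay below every control rat. The log2 differences were -0.38, -0.63 and -0.65 (standard error 0.24), or 1.55-fold and 1.57-fold lower at 1000 and 1500 ppm, with limma adjusted p-values of 0.516 and 0.597 and exact permutation p-values of 0.0779 and 0.0736. With the slide as a block, the differences at 1000 and 1500 ppm were -0.71 and -0.53 and neither was called. The value at 1500 ppm was -0.47 without control rat 1 and -0.52 without control rat 2, and it was not called in either case. At 1000 ppm Nfkbia was not called without control rat 1 (-0.46), 2 (-0.50) or 3 (-0.58), or without rat 31 (-0.56) or 33 (-0.58) of that dose.

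Socs3 (NM_053565), the gp130 pathway inhibitor, ranged from -2.005 to -0.75 in control rats (median -1.35) and from -1.61 to -0.98 at 600 ppm (median -1.45). Its range was -2.17 to -0.98 at 1000 ppm (median -1.66) and -1.88 to -1.44 at 1500 ppm (median -1.81). Every rat at 1500 ppm lay within the control range, which control rat 1 extended downward. The log2 differences were -0.02, -0.24 and -0.39, and at 1500 ppm the limma adjusted p-value was 0.731 and the 95% interval -0.78 to 0.01.

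**Figure D2:**
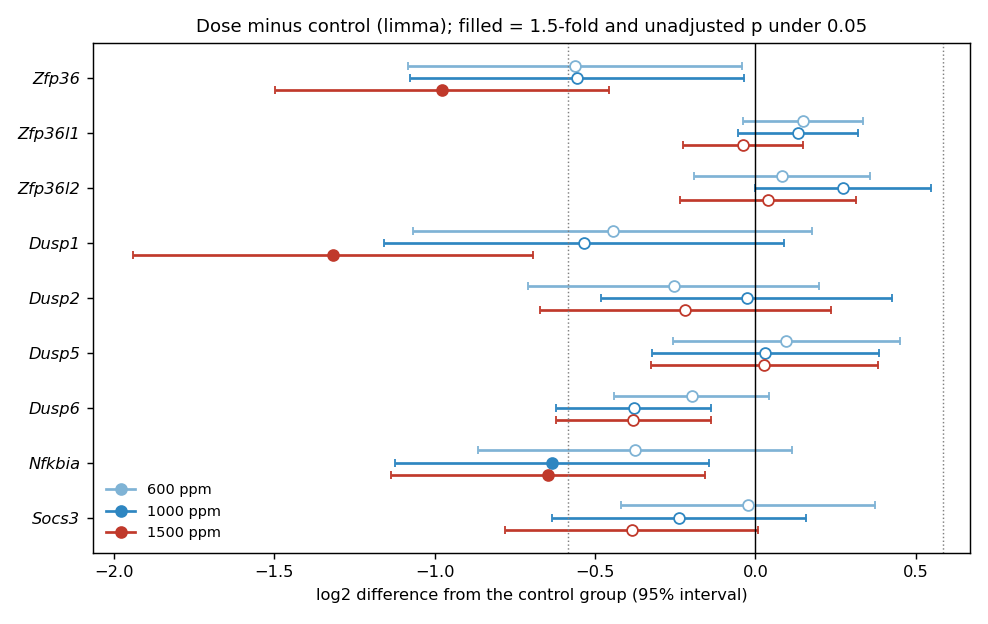
Log2 difference of each dose group from the control group with its 95% interval (horizontal axis) for the 9 genes, from limma on all 24 arrays, with filled points at 1.5-fold and an unadjusted p-value under 0.05 and dotted lines at 1.5-fold. Dusp1 at -1.32 and Zfp36 at -0.98, both at 1500 ppm, lie farthest from 0.

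A slope on dose was fitted over all 24 rats, without the slide in the fit, to ask whether a gene followed the concentration. The slope of Dusp1 was -0.83 per 1000 ppm on the log2 scale (standard error 0.19, limma adjusted p-value 0.172) and that of Zfp36 -0.61 (standard error 0.16, limma adjusted p-value 0.261). The slopes of Nfkbia, Dusp6 and Socs3 were -0.45, -0.27 and -0.27 per 1000 ppm, with limma adjusted p-values of 0.446, 0.317 and 0.565. These 5 slopes were below 0 with an unadjusted p-value under 0.05, as were those of 3.72% of all genes, and the other 4 members had slopes between -0.10 and 0.06. With the slide as a block, the slopes were -1.63 for Dusp1, -1.41 for Zfp36 and -0.37 for Dusp6, which kept an unadjusted p-value under 0.05, as did 1.4% of all genes with a slope below 0. The blocked slopes of Nfkbia and Socs3 were -0.39 and -0.24 and no longer passed that threshold. In the blocked fit the limma adjusted p-value was 0.998 for each of these 5 genes. Between exposed groups, the log2 difference of Dusp1 was -0.87 from 600 to 1500 ppm and -0.78 from 1000 to 1500 ppm, with limma adjusted p-values of 0.480 and 0.898. Zfp36 differed by 0.01 between 1000 and 600 ppm and by -0.42 between 1500 and 1000 ppm, with limma adjusted p-values of 0.99958 and 0.898. These differences between exposed groups also come from the fit without the slide.

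Slides allowed a comparison of neighbouring doses, since each slide held a lower and a higher dose in rats of 1 sex. Dusp1 was lower in the higher dose on 6 of 6 slides, with log2 differences between -1.40 and -0.32. Zfp36 was lower in the higher dose on 6 of 6 slides as well, with log2 differences between -1.06 and -0.34. The higher dose was lower on all 6 slides for 0.828% of all genes. The largest Dusp1 gaps were between 1000 and 1500 ppm. On slide 3 the single middle-dose male stood at 0.19 and the 3 high-dose males between -1.33 and -1.15. On slide 6 the middle-dose female stood at 0.15 and the high-dose females between -2.06 and -0.45. For Nfkbia the higher dose was lower on 4 of 6 slides, and the largest gap was on slide 1, where the control males had a mean of 4.19 and the 600 ppm male stood at 2.92. Dusp6 and Dusp2 were lower in the higher dose on 5 of 6 slides, Dusp5 and Socs3 on 4, and Zfp36l1 and Zfp36l2 on 3. Of all genes, 7.52% were lower in the higher dose on at least 5 slides and 30.3% on at least 4. Rats of the same dose and sex also differed between slides. At 600 ppm the Zfp36 level was -0.97 on slide 1 and -0.28 on slide 2, -0.77 on slide 4 and -0.41 on slide 5. At 1000 ppm it was -0.61 on slide 2 and -0.10 on slide 3, -0.81 on slide 5 and -0.12 on slide 6. Dusp1 at 1000 ppm was -0.38, 0.19, -0.95 and 0.15 on slides 2, 3, 5 and 6. The part of the slide in the gaps between doses was not tested. Most of these comparisons set 1 rat against 3, and no test was run within a slide.

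**Figure D3:**
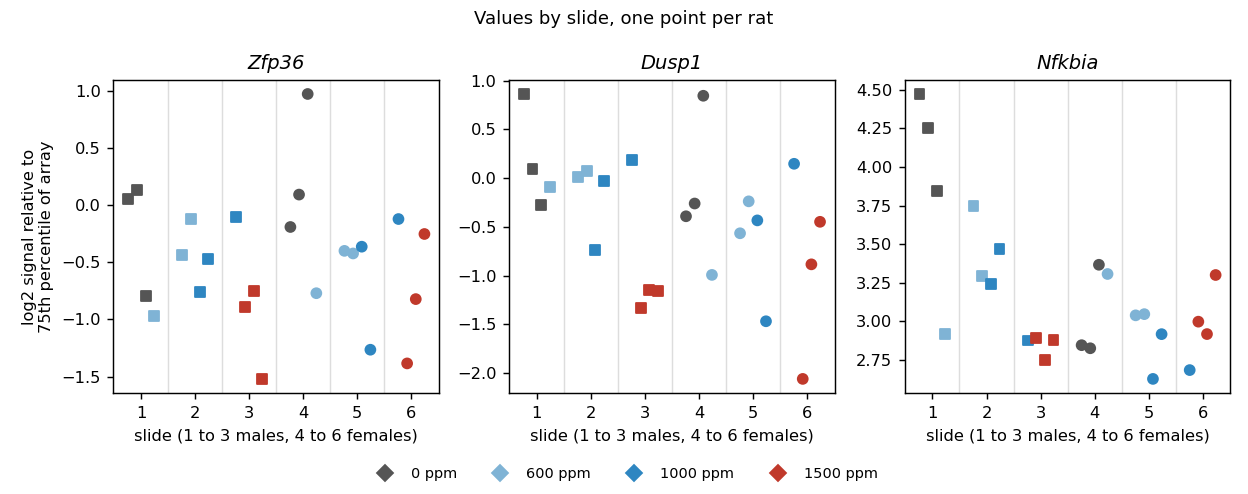
Level of Zfp36, Dusp1 and Nfkbia (log2 signal relative to the 75th percentile of the array) by slide, with 1 point per rat, squares for males and circles for females, colored by dose. Within each slide the higher dose has the lower mean for Zfp36 and Dusp1, while for Nfkbia the gap on slide 1 is not seen on slide 4.

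Males and females were then compared, with 3 rats of each sex per group. At 1500 ppm Dusp1 had log2 differences of -1.44 in males (mean 0.23 to -1.21) and -1.20 in females (mean 0.06 to -1.13). Zfp36 had differences of -0.85 in males and -1.11 in females. Tests of male against female effects gave limma adjusted p-values of 0.872 for Dusp1 and 0.832 for Zfp36.

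Nfkbia differed between the sexes. Control males were between 3.85 and 4.47 and control females between 2.83 and 3.37, so the sexes did not overlap, with every control male above every control female, as for 11.3% of all genes. Control males were 1.18 above control females (limma adjusted p-value 0.00429), a comparison in which 6.31% of all genes had an adjusted p-value under 0.05. At 1500 ppm males were between 2.75 and 2.89 and females between 2.92 and 3.30. The log2 difference from control at 1500 ppm was -1.35 in males (limma adjusted p-value 0.00259) and 0.06 in females (limma adjusted p-value 0.927). An adjusted p-value under 0.05 was found for 3.18% of all genes in males and 1.49% in females. The male effect minus the female effect was -1.41 (standard error 0.29, limma adjusted p-value 0.00969), which 4.97% of all genes passed at this dose. At 600 and 1000 ppm that difference was -0.99 and -0.73, with limma adjusted p-values of 0.838 and 0.450. The control males all lay on slide 1, and sex and slide cannot be told apart.

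Dusp5 showed the opposite arrangement of the sexes. Control males were between -0.76 and -0.13 and control females between 0.05 and 0.35, a difference of -0.65 (limma adjusted p-value 0.0269). At 600 ppm the males were between -0.03 and 0.36 and the females between -0.33 and -0.14, and at 1000 ppm between 0.02 and 0.19 and between -0.50 and -0.17. Males thus stood below females without overlap in the control group, as for 18.5% of all genes, and above them without overlap at 600 and 1000 ppm, as for 7.83% and 8.53% of all genes. The male effect minus the female effect was 1.05, 1.09 and 0.66 at the 3 doses, with limma adjusted p-values of 0.460, 0.212 and 0.111. Socs3 had log2 differences at 1500 ppm of -0.74 in females and -0.03 in males, and the difference between them had a limma adjusted p-value of 0.220.

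**Figure D4:**
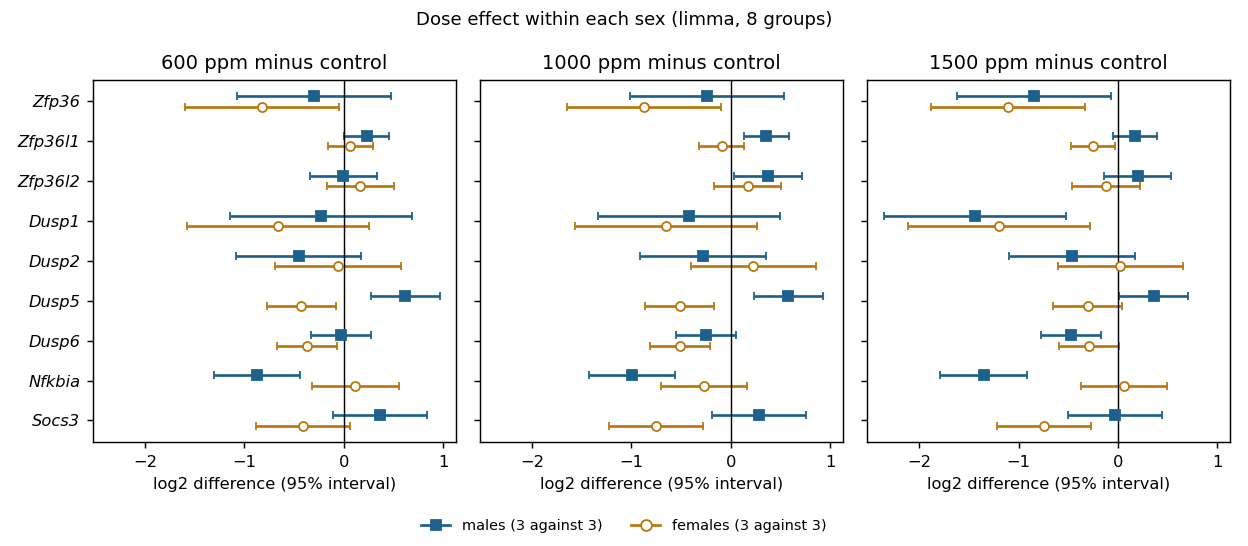
Log2 difference of each dose from the control group within males (filled squares) and within females (open circles), 3 rats against 3, with 95% intervals from limma on 8 groups. At 1500 ppm Nfkbia lies at -1.35 in males and 0.06 in females, while Dusp1 and Zfp36 lie below 0 in both sexes.

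Zfp36 and Dusp1 varied together across rats. Pearson's r over the 24 arrays was 0.83, and 0.73 after each group's mean was taken out. The 5 genes with a symbol most like Zfp36 by this measure were Btg2 (0.85), Fos (0.85), Junb (0.84), Jun (0.84) and Dusp1 (0.83), and their r within groups was between 0.72 and 0.80. Over the 36 pairs of members, r within groups ran from -0.77 (Dusp2 with Socs3) to 0.73 (Zfp36 with Dusp1), with a median of 0.05. Nfkbia had an r within groups of -0.01 with Zfp36 and 0.28 with Dusp1. These correlations are given as a description, since the arrays share slides, sexes and doses.

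The rest of the pathway was followed through 6 gene lists at 1500 ppm. Like the members, the lists were chosen with earlier results of these data known, so their counts are a description. Among immediate early genes, which are transcribed within minutes of a stimulus, 7 of 22 tested were called lower and 0 higher, with a median log2 difference of -0.48. Of all genes, 0.531% were called lower and 0.701% higher at this dose. In either direction, 13 of the 22 had an unadjusted limma p-value under 0.05, against 6.95% of all genes, and 0 an adjusted one. The 7 were Fos, Nr4a1, Klf2, Jun, Btg2, Klf4 and Junb, all transcription factors or, for Btg2, an antiproliferative cofactor. Fos had the largest fall, -2.42 (limma adjusted p-value 0.411), followed by Egr1 at -1.23, which was not called, and the largest positive values were 0.56 for Atf3 and 0.42 for Ccn2. Jun went from a mean of 3.90 ± 0.43 in control rats to 3.02 ± 0.36 (SD, n = 6), a log2 difference of -0.88 (limma adjusted p-value 0.178). At 1000 ppm 2 of the 22 were called lower, Klf2 at -0.78 and Jun at -0.61, where 0.339% of all genes were called lower.

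Other negative regulators were not called. Of 27 tested, among them further Dusp, Socs, Spry and IkB family genes, 0 were called at 1500 ppm in limma. In that test 2 had an unadjusted p-value under 0.05, as did 6.95% of all genes, and the median was -0.03. With 0.531% of all genes called lower and 0.701% higher, 0 called in a list of this size does not set these genes apart. The extremes were Dusp8, a JNK and p38 phosphatase, at -0.55 and Socs1 at -0.29 on the lower side, and Dusp14 at 0.27 and Spred1 at 0.19 on the higher side. Of 15 mRNAs described as Zfp36 targets, 9 were lower and 6 higher than in the control group, the median was -0.03, and 1 was called lower (Fos, which is also an immediate early gene). By limma, 3 of the 15 had an unadjusted p-value under 0.05 (Fos, Myc and Ccl3, all lower) and 0 an adjusted p-value under 0.05. The cytokines Ccl2 and Tnf had log2 differences of 0.60 and 0.29, with limma adjusted p-values of 0.735 and 0.818, and Myc had -0.41 (limma adjusted p-value 0.497).

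The mRNAs of the signaling proteins that these regulators act on had small differences, and no protein level or activity was measured. At 1500 ppm 0.531% of all genes were called lower and 0.701% higher, so 0 called does not set these lists apart. The unadjusted limma p-value was under 0.05 for 6.95% of all genes. Of 14 NF-kB subunits and kinases, 0 were called by limma at 1500 ppm, 1 had an unadjusted p-value under 0.05, and the values ran from -0.25 (Tbk1) and -0.16 (Traf2) to 0.18 (Tab1) and 0.09 (Map3k7), with a median of -0.10. Of 17 MAP kinases and their activators, 0 were called by limma and 0 had an unadjusted p-value under 0.05, and the extremes were -0.27 (Map2k7), -0.21 (Map2k6), 0.16 (Map2k3) and 0.15 (Mapk13). Of 15 genes of gp130, JAK and STAT signaling, 0 were called by limma and 1 had an unadjusted p-value under 0.05, with extremes of -0.26 (Il11ra1), -0.22 (Il6st), 0.30 (Osmr) and 0.13 (Ptpn11).

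**Figure D5:**
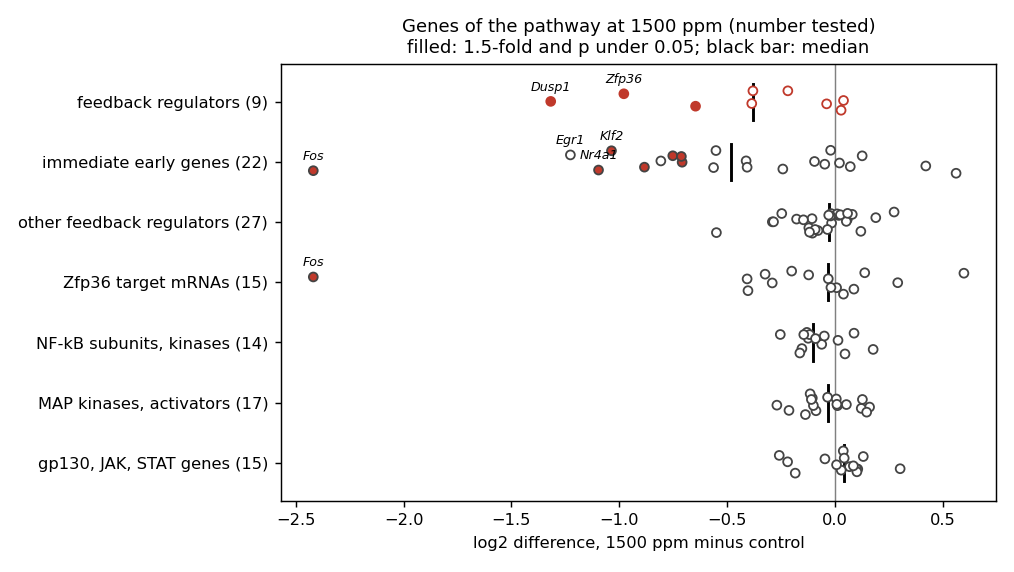
Log2 difference of 1500 ppm from the control group (horizontal axis) for the genes tested in each list, 1 point per gene, filled where called at 1.5-fold and an unadjusted p-value under 0.05, with a black bar at the median of each list. The called points lie in the feedback regulators (3) and the immediate early genes (7), with Fos also shown among Zfp36 targets.

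Markers of other cells differed between some groups at the unadjusted threshold, and their part in the results was not tested. Heart muscle genes were higher at every dose in 11 of 11 tested, 6 of them called at 1000 ppm and 0 at 1500 ppm. The smallest limma adjusted p-value among them at 1000 ppm was 0.516. Of all genes, 1.29% were called higher at 1000 ppm. Their summed level was from 1.91 to 5.36 in control rats, and it ran from 2.43 to 6.11, from 3.21 to 7.19 and from 1.91 to 7.21 in the low-dose, middle-dose and high-dose groups. At 1500 ppm, where Dusp1 and Zfp36 were called, 2 of 8 erythroid genes were called lower (Alas2 at -0.81 and Hemgn at -1.22), against 0.531% of all genes. The limma adjusted p-values of Alas2 and Hemgn were 0.717 and 0.710. The summed erythroid level was between 8.38 and 9.07 in the control group and 8.13 and 9.01 at 1500 ppm. Macrophage genes (8 tested) and T and B cell genes (9 tested) had 0 called by limma at any dose, as did the 14 lung genes. Among 6 neutrophil genes 1 was called higher at 1000 ppm (S100a8 at 0.71, limma adjusted p-value 0.549) and 0 at the other doses. Summed neutrophil levels were between 1.16 and 3.14 in the control group and 1.47 and 3.10 at 1500 ppm.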

How the data were processed

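Lung RNA of 24 rats was hybridized to one-colour (Cy3) Agilent rat arrays. The deposited intensities are processed signals, which the authors extracted with Agilent Feature Extraction software (version 11.5.1.1 per the file headers), with background subtracted and no scaling between arrays. Control spots were removed, and repeated spots were averaged without outlier spots, except where every spot of a probe was marked as an outlier. The array's 75th percentile was then subtracted on the log2 scale. Accessions gave a symbol to 18355 of 30367 probes (60.4%) through a RefSeq table of GRCr8, which served for names and for the promoter sequences. Kept were probes that, in any group, stood well above background on 5 or more of the 6 arrays, with the brightest probe standing for its gene, which left 21263 genes or unnamed probes.

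Groups were taken from the sample names. Dose groups were tested against control with limma 3.58.1 in R 4.3.3 (lmFit, eBayes), with 1 spread for all 24 arrays. Benjamini-Hochberg adjustment was over all genes tested. Exact permutation tests were two-sided, and their p-values are printed unadjusted. Adjusted over all genes, the smallest among the members was 0.438. The sexes were compared on 8 groups. Alternatives were other background corrections, scalings, filters and probe choices, the authors' table, the methods' t-test, fits by dose or sex, sex or slide as a term, and leaving out each rat. The members and lists were chosen with earlier results of these data known. The genes named are the members, the 5 genes most correlated with Zfp36 and, in each pathway list at 1500 ppm, 2 genes from each end of the ranked differences. The other called genes, and those of the marker lists, were named after their values were seen.

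The fit was tested on simulated data: with 200 of the 21263 genes shifted 2-fold at 1500 ppm, 92.5% were recovered with the right sign, 82.5% at an adjusted p-value under 0.05, and 197 unchanged genes were called too. The simulated noise was independent for each gene and array and held no slide or sex differences. These shares therefore check the fit and do not give what the real arrays could detect. The number of arrays limits the precision.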

Additional observations from a re-analysis of the deposited data

Results flagged for a closer look

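The effect of 1500 ppm on Nfkbia differed between males and females, by -1.41 on the log2 scale (standard error 0.29, limma adjusted p-value 0.00969). It was the only one of 27 tests of a sex difference in the dose effect of the members (9 genes at 3 doses) with an adjusted p-value under 0.05. Of all genes, 4.97% passed that test at 1500 ppm and 0% at 600 and at 1000 ppm, so such a difference was not particular to Nfkbia. The mean of males went from 4.19 ± 0.32 in the control group to 2.84 ± 0.08 at 1500 ppm, and the mean of females from 3.01 ± 0.31 to 3.07 ± 0.20 (SD, n = 3). The 3 control males lay on slide 1 and the 3 high-dose males on slide 3. On slide 1, the 600 ppm male stood at 2.92, below the 3 control males. The part of the slide in this difference was not tested. In 36 groups of 6 rats (9 genes in 4 groups), 0 rats stood apart from the others of their group by Dixon's test at its critical value of 0.625, where chance flags about 1 group in 20.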

How the results depend on the processing

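Zfp36 and Dusp1 at 1500 ppm stayed called lower under all 14 alternative settings (-2.11 to -0.85 and -2.52 to -1.16) and in all 24 fits that left out 1 rat (-1.15 to -0.79 and -1.46 to -1.14). The limma adjusted p-value over the 14 settings was 0.129 to 0.999 for Zfp36 and 0.0532 to 0.983 for Dusp1. The number of members called lower at 1000 ppm was 0 with the authors' table, with the methods' t-test and at an adjusted p-value under 0.05, and 2 with the slide as a fixed block, the slide as a random block, or females alone. Of the 21263 genes, 30 were called lower with the authors' table and 46 with the t-test. The fixed block, the random block and females alone gave 131, 66 and 379. At 600 ppm 1 member was called lower with either slide block and with males alone, which also gave 1 higher. Over all genes, 103 were called lower with the fixed block and 99 with the random block. Males alone gave 162 lower and 103 higher. At 1500 ppm 0 members had an adjusted p-value under 0.05 in the fit of all 24 rats, and 1 did with males alone (Nfkbia, limma adjusted p-value 0.0405). Of the 21263 genes, 1 passed in the fit of all rats and 165 with males alone. Leaving out 1 rat gave 0 to 1 members called lower at 600 ppm (1, Zfp36, without control rat 3 or 21 or without rat 8 or 27) and 0 to 3 at 1000 ppm (0 without control rat 1 or 2, 2 without control rat 21, 3 without rat 13). The fits named here called 92 to 160 of the 21263 genes lower at 600 ppm and 78 to 125 at 1000 ppm. Nfkbia at 1500 ppm was not called with the methods' t-test or with the slide as a fixed block. The cause was not tested.

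Direction changed for differences that were not called and, in females alone, for Nfkbia at 1500 ppm, which was called at -0.65 over all rats. With normexp Zfp36l1 was -0.017 at 600 ppm and -0.089 at 1000 ppm, and the median of all genes shifted to -0.12 at 1000 ppm. Normexp also gave 368 lower and 74 higher genes at 1000 ppm, against 72 and 275. With the authors' unscaled table, where that median was 0.11, Socs3 was 0.047 at 600 ppm, Dusp2 0.077 at 1000 ppm, and Zfp36l2 -0.026 and Dusp5 -0.037 at 1500 ppm. With the slide as a fixed block, Dusp5 was -0.089 at 1000 ppm and -0.19 at 1500 ppm and the slopes of Zfp36l1 and Dusp5 were 0.017 and -0.12. As a random block, Dusp2 at 1000 ppm was 0.00181 and Dusp5 -0.019 at 1500 ppm. In males alone, Zfp36l2 was -0.0029 at 600 ppm, Socs3 0.36 and 0.28 at 600 and 1000 ppm, and Zfp36l1 0.17 at 1500 ppm. In females alone, Dusp5 was -0.43, -0.52 and -0.30 at the 3 doses, Nfkbia 0.12 at 600 ppm and 0.059 at 1500 ppm, Zfp36l1 -0.093 and Dusp2 0.23 at 1000 ppm, and Zfp36l2 -0.12 and Dusp2 0.025 at 1500 ppm. Leaving out 1 rat gave Dusp5 -0.032 to 0.19 and Socs3 -0.16 to 0.10 at 600 ppm, Dusp2 -0.19 to 0.10 and Dusp5 -0.10 to 0.13 at 1000 ppm, and Zfp36l1 -0.082 to 0.021, Zfp36l2 -0.035 to 0.13 and Dusp5 -0.10 to 0.12 at 1500 ppm. No paired analysis was possible because the groups share no rat numbers.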
